A study of Mus musculus with 57 samples.

Results

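The 10 genes described here, which the transcription factor ATF4 is known to drive, were followed across 57 mouse livers given 7 toxicants or a vehicle. They were chosen by name, 10 of the 54307 genes of the table: Atf3, Ddit3, Ppp1r15a, Trib3, Atf5, Asns, Psat1, Phgdh, Chac1 and Sesn2. Ddit3 means the protein-coding gene ENSMUSG00000025408, and a separate gene model of 105 nt with the same symbol, ENSMUSG00000116429, was not counted as a member. All livers came from male wild-type C57BL/6JJcl mice that were 6 weeks old, were acclimatised for 1 week, fasted for 12 h before dosing and were killed 24 h after it. Gavage groups received thioacetamide (TAA, 5 mice), acetaminophen (APAP, 6), 4,4'-methylene dianiline (MDA, 7) or alpha-naphthyl isothiocyanate (ANIT, 4), with 13 controls on 0.5% methylcellulose. Carbon tetrachloride (CCl4, 7) and galactosamine (GAL, 4) were given intraperitoneally, with 2 saline controls. Concanavalin A (ConA, 7), a plant lectin that activates T cells, was injected into the tail vein, with 2 saline controls. Corn oil also appears among the vehicles in the labels, but none of the 17 controls received it, and the mass of compound given per kilogram is not given in the sources used here. Each library is messenger RNA from a part of the left lateral lobe of 1 perfused liver, so in these bulk samples fewer cells of a type and less RNA per cell cannot be told apart.

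ATF4 is the effector of the integrated stress response. Kinases that sense unfolded protein in the endoplasmic reticulum, lack of amino acids, lack of haem or double-stranded RNA phosphorylate the translation factor eIF2, which slows translation in general while the ATF4 message is translated more. ATF4 then binds composite sites with C/EBP partners and turns on genes of amino acid synthesis and transport, antioxidant defence, feedback and, under lasting stress, cell death. Hepatocytes use this pathway in fasting and after many toxic injuries.

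Windows around the start show which of the members carry there the letters that ATF4 is known to read. RefSeq promoter windows of build GRCm38.p6, from 250 bases before to 50 bases after each start, were found for all 10 members, in 12 windows of 300 bases. The composite motif TGATGNAA, searched on both strands, was present in at least 1 window of 4 of the 10 members, which is 40.0%, and of 4.51% of the 27025 genes with a window in the table (3.97% of 32851 promoter windows). The stretches of 30 bases that hold it are shown here because they name the members with this site near their start; capitals mark the motif, read in the direction of the gene, so that it appears as its reverse complement in Atf3, Chac1 and Trib3. The last 30 bases of 11 of the 12 windows were found in a transcript of the gene on the same strand; those of the Trib3 window were found on neither strand, so its direction is that of the RefSeq table alone.
Asns, chr6:7693214-7693243, minus strand, 23 bases before the start: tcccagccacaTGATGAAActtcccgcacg
Atf3, chr1:191183425-191183454, minus strand, 110 bases before the start: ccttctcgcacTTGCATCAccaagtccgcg
Chac1, chr2:119351038-119351067, plus strand, 193 bases before the start: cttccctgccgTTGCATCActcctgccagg
Trib3, chr2:152344028-152344057, minus strand, 15 bases after the start: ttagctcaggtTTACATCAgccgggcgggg
The cAMP-response element TGACGTCA, which shares no full-length match with the composite motif, was present in the Ppp1r15a window and in 2.03% of genes (1.79% of all promoter windows).
Ppp1r15a, chr7:45526262-45526291, minus strand, 12 bases before the start: cgcctctccggTGACGTCAgcacagcgccg
A match is a description of the letters in these windows, and the windows of Ddit3, Atf5, Psat1, Phgdh and Sesn2 held neither motif. Bases outside the windows were not searched, so a window without a match does not show that the gene lacks a site.

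Libraries held 13826343 to 35075809 estimated counts (median 21532116). Levels below are in CPM, the count relative to the library's scaled total, with scaling by the trimmed mean of M values (TMM) over the 57 libraries, and differences are log2 fold changes ± SE of treated minus control. A gene was called higher or lower at an adjusted p under 0.05 in edgeR's quasi-likelihood test, with Benjamini-Hochberg adjustment over all genes tested. The hepatocyte marker Alb was above 0 in all 57 livers, but the summed level of 7 hepatocyte markers was 20631 to 32103 CPM after CCl4 and 28280 to 36113 CPM after GAL, against 55111 to 117609 CPM in the vehicles. Counts from mitochondrial genes made up 14.6% to 39.3% of ConA libraries and 5.11% to 25.4% of vehicle libraries. Scaling by library total instead of TMM moved the median change over all genes, on the log2 scale and against the 17 vehicles, by -0.24 in ANIT, 0.15 in APAP, 0.53 in CCl4, 0.83 in GAL and -0.62 in ConA. The genes called higher and lower then changed from 1946 and 2097 to 847 and 2955 in ANIT, from 2583 and 2191 to 3045 and 1274 in APAP, and from 3722 and 3860 to 7141 and 1738 in CCl4. They changed from 3825 and 4189 to 8335 and 1759 in GAL, and from 4730 and 4654 to 2351 and 7011 in ConA. With library totals the ConA calls of Psat1 (1.67), Sesn2 (0.89), Asns (0.95) and Trib3 (1.01) against the route vehicle were lost and Atf5 was called lower (-1.47). Member changes are therefore read as changes relative to most other genes of the same liver.

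Against the vehicle of their own route, most members rose after every compound except GAL. ANIT raised 9 of the 10 members, where 14.0% of all genes tested were called higher. APAP raised 8 (background 17.3%), MDA raised 7 (17.4%) and TAA raised 7 (26.4%), and none of these 4 gavage compounds lowered a member. CCl4 raised 9 members (background 18.0%) and ConA raised 8 (16.8%), each against 2 controls. GAL raised 2, Psat1 and Sesn2 (background 12.8%), and lowered 3, Atf5, Chac1 and Trib3 (15.7%), which in 10 genes is near that background. The median log2 fold change over the members was 1.90 in ANIT, 1.91 in APAP, 0.88 in MDA, 1.96 in TAA, 3.11 in CCl4, 0.67 in GAL and 1.67 in ConA, and over all genes it lay between -0.01 and 0.10.

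Against all 17 vehicles the counts were the same for ANIT (9 higher, background 13.5%), APAP (8, 18.1%), MDA (7, 17.2%), TAA (7, 25.2%) and CCl4 (9, 26.2%). ConA had 8 members higher (34.3%) and Atf5 lower (33.7%). GAL had 5 higher (25.1%), namely Atf3, Ddit3, Ppp1r15a, Psat1 and Sesn2, and 2 lower, Atf5 and Chac1 (27.5%). The member medians were 1.83 in ANIT, 1.93 in APAP, 0.84 in MDA, 1.94 in TAA, 3.42 in CCl4, 0.76 in GAL and 1.70 in ConA. These comparisons share their controls, so the compounds' values stand side by side and are not independent of each other. Psat1 and Sesn2 were called higher in all 7 compounds against both sets of controls, and Atf3, Ddit3 and Ppp1r15a were in all 7 against all vehicles and in each but GAL against the route vehicle.

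**Figure D1:**
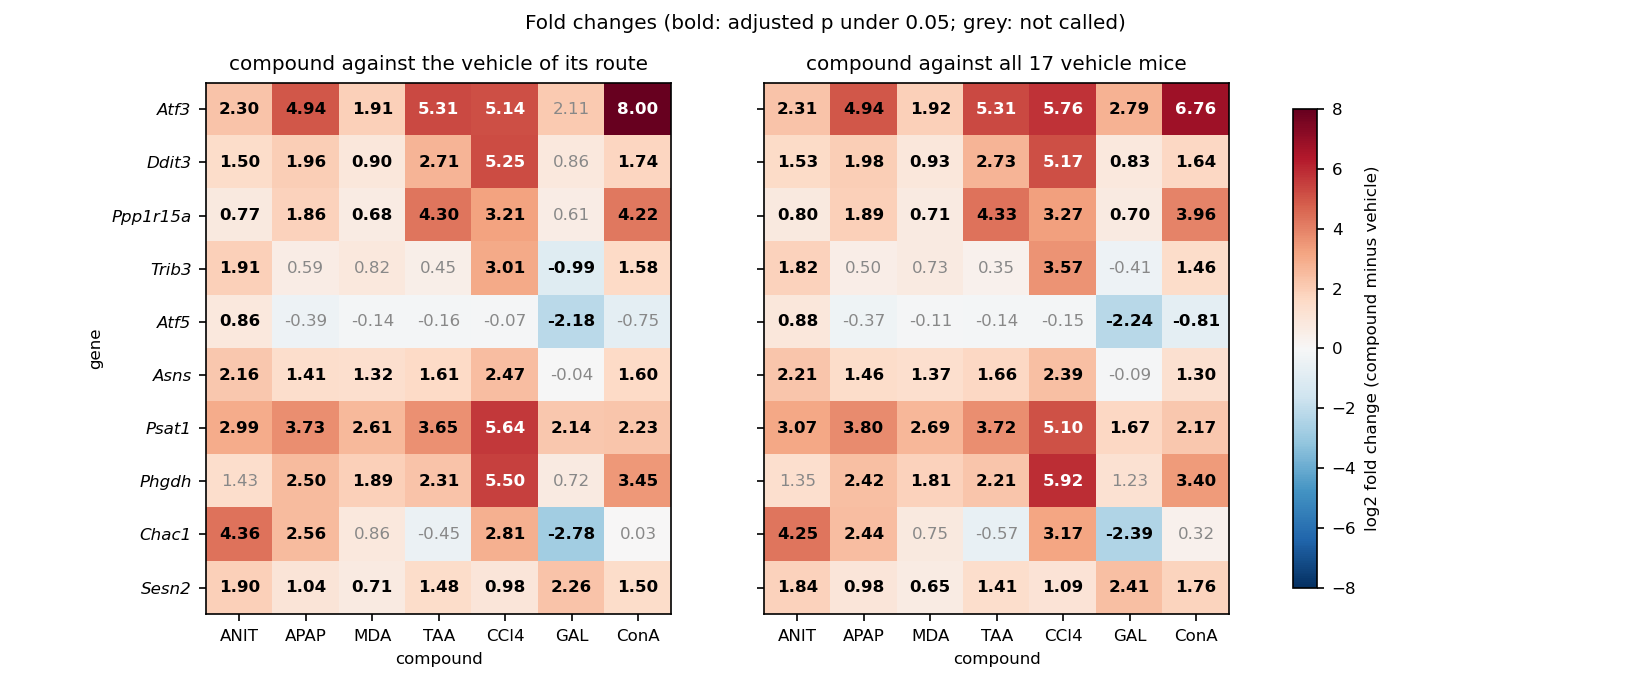
Heat maps of the log2 fold change of each member (rows) in each compound (columns), against the vehicle of the same route and against all 17 vehicles; bold numbers were called at an adjusted p under 0.05. The CCl4 columns hold 9 called increases each, and the Atf5 and Chac1 cells of GAL are called decreases.

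How far single mice stood clear of the controls differed more between compounds than the number of calls did. After CCl4, all 7 mice lay above all 17 vehicles for 9 members (background 9.04%), and after TAA all 5 mice did for 6 members (8.67%). After ConA this held for 5 members (11.7%). It held for 2 members in ANIT (3.01%), Asns and Psat1, and for Psat1 alone in APAP (1.70%) and MDA (1.37%). After GAL, Psat1 and Sesn2 lay above all vehicles (10.7%) and Atf5 lay below all of them (14.0%). Against the route vehicles alone the numbers above were 2 in ANIT (3.99%), 1 in APAP (2.09%), 1 in MDA (1.75%), 6 in TAA (10.0%), 9 in CCl4 (21.1%), 2 in GAL (26.7%) and 8 in ConA (18.5%), and 3 members lay below in GAL (25.5%).

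**Figure D2:**
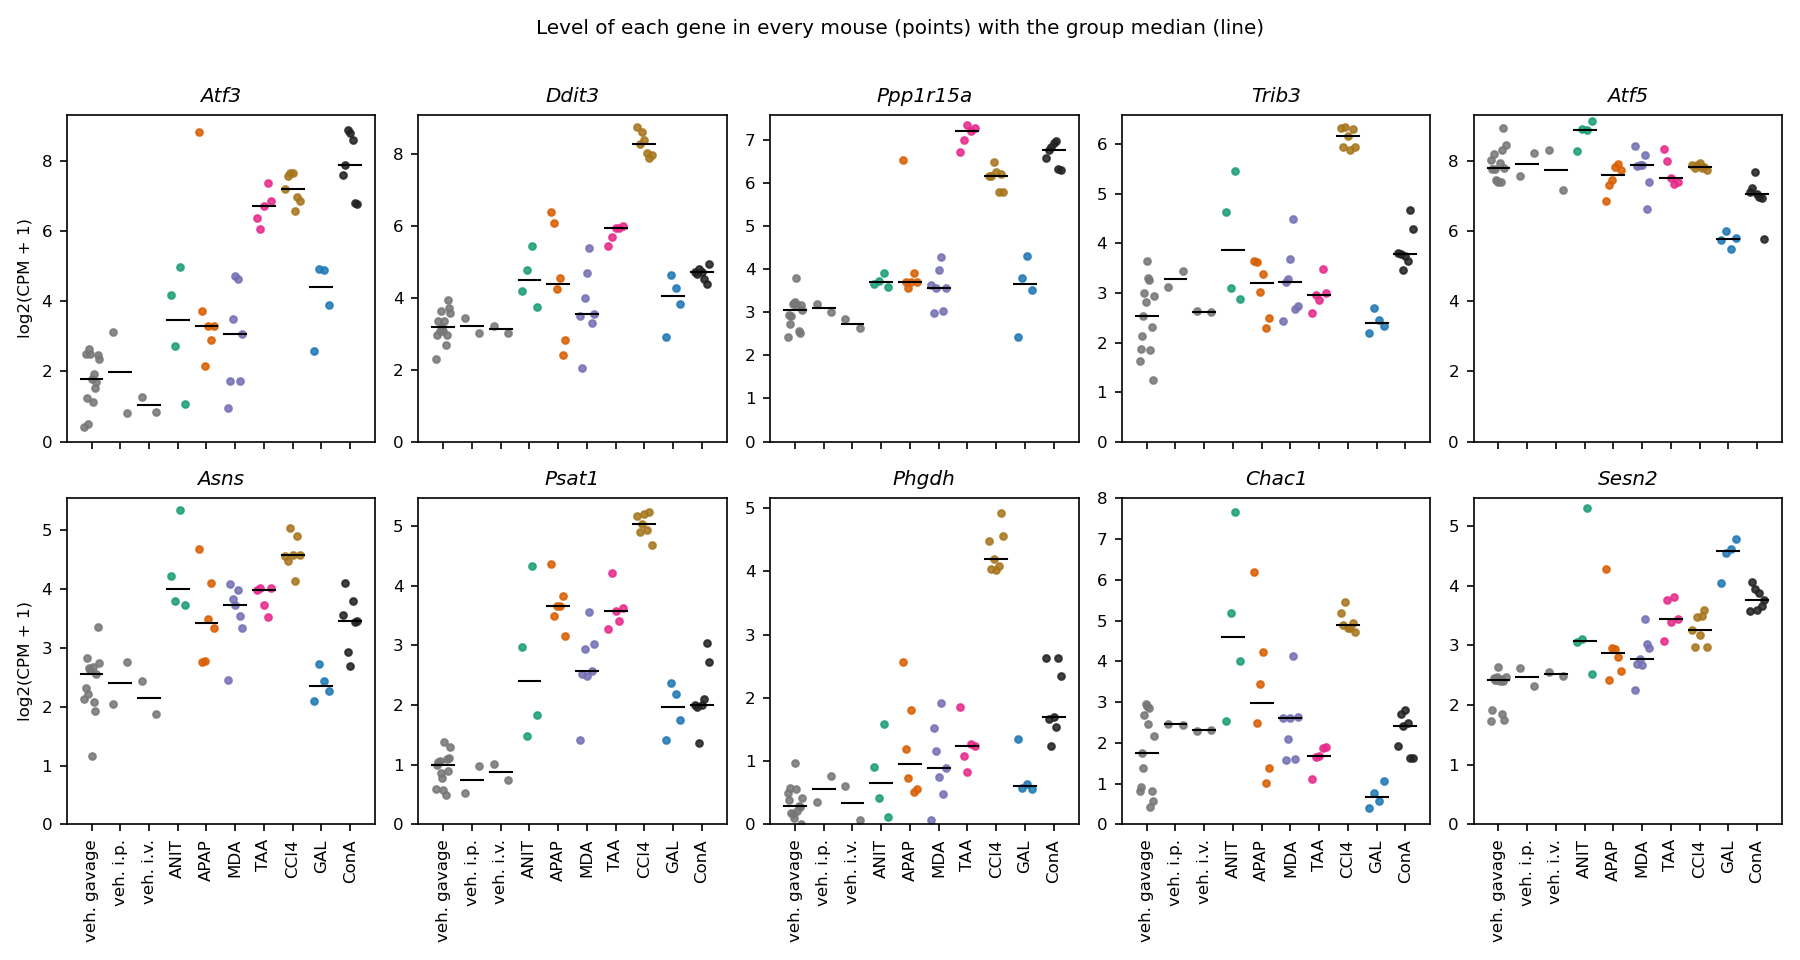
Level of each member in every mouse as log2(CPM + 1), 1 panel per gene, with mice as points by group and the group median as a line. The CCl4 mice sit in a narrow band above the vehicles in 9 panels, whereas ANIT and APAP mice are spread and 1 mouse of each stands high in most panels.

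Atf3 is a stress-induced repressor of the ATF family. In the 13 gavage vehicles it ranged from 0.338 to 5.29 CPM (median 2.43), the intraperitoneal vehicles had 7.77 and 0.752 CPM, and the intravenous ones 1.41 and 0.790 CPM. ConA livers had 107.5 to 471.9 CPM (median 233.8), CCl4 livers 94.6 to 200.8 CPM (median 145.3), and TAA livers 81.4, 66.0, 103.4, 163.4 and 114.1 CPM. All mice of these 3 groups were above all 17 vehicles. Against all vehicles the log2 fold changes were 6.76 ± 0.46 in ConA (adjusted p = 2.15e-12), 5.76 ± 0.41 in CCl4 (7.35e-12) and 5.31 ± 0.44 in TAA (7.68e-10). Against the 2 intraperitoneal vehicles the CCl4 value was 5.14 ± 0.84, and it was 7.78 without vehicle mouse 7 and 4.31 without vehicle mouse 8; those 2 controls differ by 10.3 times. APAP mice had 449.9, 12.2, 3.49, 8.85, 6.49 and 8.81 CPM, so mouse 1 alone was far from the controls. The APAP log2 fold change of 4.94 ± 0.73 (1.44e-05) became 1.56 without mouse 1 and was still called. ANIT mice had 17.2, 5.60, 30.4 and 1.12 CPM (log2 fold change 2.31 ± 0.59, adjusted p = 0.0052), and without mouse 3 the value was 1.54 (adjusted p = 0.119). The MDA range was 0.945 to 25.1 CPM (median 7.42, log2 fold change 1.92 ± 0.52). GAL mice had 5.00, 29.3, 28.8 and 13.8 CPM, a change of 2.79 ± 0.52 against all vehicles that was called and of 2.11 ± 1.08 against the route vehicle that was not (adjusted p = 0.183), with 4.81 without vehicle mouse 7 and 1.25 without vehicle mouse 8. DESeq2 called that route change (2.15, adjusted p = 0.0388).

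Ddit3 encodes CHOP, a partner of C/EBP proteins tied to cell death in lasting endoplasmic reticulum stress. Vehicles had 3.86 to 14.3 CPM by gavage (median 8.12), 9.78 and 7.07 CPM intraperitoneally, and 8.26 and 7.17 CPM intravenously. All 7 CCl4 livers stood between 236.3 and 427.6 CPM (median 307.2), a log2 fold change of 5.17 ± 0.17 against all vehicles (adjusted p = 4.19e-18) and of 5.25 ± 0.34 against the route vehicle. No other compound came near that level: TAA mice had 42.5, 50.2, 60.1, 60.0 and 62.3 CPM (2.73 ± 0.17) and ConA mice 19.8 to 29.5 CPM (median 25.3, 1.64 ± 0.16), and both groups were also wholly above the vehicles. APAP mice ran from 82.7 and 65.9 CPM in mice 1 and 2 through 17.8 and 22.4 CPM in mice 4 and 6 to 4.30 and 6.04 CPM in mice 8 and 11, which is the full width of the controls and far above it (1.98 ± 0.36). Against the gavage vehicles with only mice numbered above 4, the APAP change was 0.23 and not called (adjusted p = 0.761). ANIT mice had 17.3, 26.2, 42.3 and 12.3 CPM (1.53 ± 0.24). MDA mice ranged from 3.10 to 40.4 CPM (median 10.7), and the call there (0.93 ± 0.29, adjusted p = 0.0133) was lost without mouse 7 (0.50, adjusted p = 0.139) and in limma (0.57, adjusted p = 0.109). Against the gavage vehicles the MDA call was also lost without mouse 3 or mouse 4, at 0.92 and 0.77. GAL mice had 6.44, 23.8, 18.2 and 13.1 CPM, called against all vehicles (0.83 ± 0.25) but not without mouse 4 (0.59, adjusted p = 0.0893), and not called against the route vehicle (0.86, adjusted p = 0.253), where it was called without mouse 2 (1.12, adjusted p = 0.0391) and with library totals (1.59, adjusted p = 0.0488). The 105-nt gene lies whole inside 2 of the 3 Ddit3 transcripts, at bases 56 to 160 of the longest, so reads from there cannot be assigned to either gene model with certainty. With its counts added to Ddit3, the Ddit3 calls in MDA (1.33 against the route vehicle, adjusted p = 0.0555, and 1.21 against all, adjusted p = 0.0599), in ConA against its route vehicle (1.41, adjusted p = 0.183) and in GAL against all vehicles (0.74, adjusted p = 0.226) were lost.

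Atf5, another factor of the family whose message is also translated more under eIF2 phosphorylation, was called in 2 of the 7 compounds against the route vehicle, the fewest of the members. It was abundant in vehicles, at 167.3 to 485.6 CPM by gavage (median 223.5), 188.9 and 301.5 CPM intraperitoneally, and 315.6 and 142.8 CPM intravenously. GAL mice had 52.9, 63.8, 44.0 and 54.8 CPM, below every vehicle, a log2 fold change of -2.24 ± 0.28 (adjusted p = 7.22e-07) against all vehicles and -2.18 ± 0.22 (0.0024) against the route vehicle. ConA mice had 53.5 to 206.0 CPM (median 132.6), lower against all vehicles (-0.81 ± 0.22, adjusted p = 0.0026) and not called against the 2 route vehicles (-0.75, adjusted p = 0.171). That route value was -0.02 without vehicle mouse 7 and -1.23 without vehicle mouse 8. ANIT mice had 311.5, 477.4, 471.4 and 560.6 CPM, higher by 0.88 ± 0.23 against all vehicles (adjusted p = 0.0067), with only mouse 4 above the whole vehicle range. That call was lost with library totals (0.64), and against the route vehicle also without mouse 4 (0.74, adjusted p = 0.0511). Atf5 was not called in APAP, MDA, TAA or CCl4, where the changes lay between -0.39 and -0.07 on the log2 scale over both sets of controls. The CCl4 route value ran from -0.35 to 0.29 with 1 mouse left out, and stayed uncalled. In CCl4, where 9 members rose, all 7 livers held 211.7 to 242.9 CPM of Atf5 (median 226.7).

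The next pair of members acts in feedback. Ppp1r15a encodes GADD34, the inducible subunit that brings a phosphatase to eIF2 and so ends the response. Vehicles had 4.37 to 12.8 CPM by gavage (median 7.23), 8.15 and 7.06 CPM intraperitoneally, and 6.19 and 5.16 CPM intravenously. TAA mice had 103.3, 126.5, 159.7, 145.8 and 152.6 CPM, ConA mice 77.8 to 123.1 CPM (median 108.0) and CCl4 mice 54.1 to 88.8 CPM (median 70.4). These 3 groups were wholly above the vehicles, with log2 fold changes of 4.33 ± 0.16 (adjusted p = 1.27e-15), 3.96 ± 0.15 (2.66e-17) and 3.27 ± 0.15 (1.49e-15). In the other 4 compounds the gene moved by less. APAP mice ranged from 10.8 to 91.5 CPM (median 12.0, log2 fold change 1.89 ± 0.33), and without mouse 1 the change was 0.81, still called. ANIT mice had 11.7, 12.3, 14.0 and 11.0 CPM (0.80 ± 0.19), and the call was lost with library totals (0.55) and, against the route vehicle, without mouse 3 (0.69, adjusted p = 0.0508). MDA mice ranged from 6.92 to 18.5 CPM (median 10.9, 0.71 ± 0.18), and against the gavage vehicles the call was lost without mouse 7 (0.51, adjusted p = 0.0515) and with library totals (0.66). GAL mice had 4.37, 12.9, 18.9 and 10.5 CPM, a call of 0.70 ± 0.25 against all vehicles (adjusted p = 0.0233) that was lost without mouse 4 (0.70, adjusted p = 0.0513) or mouse 7 (0.41, adjusted p = 0.232), and in limma (0.52, adjusted p = 0.0725).

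Trib3 encodes a pseudokinase that binds AKT and ATF4 and dampens both. Vehicles had 1.36 to 11.5 CPM by gavage (median 4.83), 7.73 and 9.93 CPM intraperitoneally, and 5.18 and 5.10 CPM intravenously. Only CCl4 put all its mice above all vehicles, at 58.0 to 80.1 CPM (median 70.7), a log2 fold change of 3.57 ± 0.27 (adjusted p = 2.82e-11). ConA mice had 10.1 to 24.6 CPM (median 12.9, 1.46 ± 0.29); against the route vehicle the change was 1.58 ± 0.39, and that call was lost without either intravenous vehicle (1.63, adjusted p = 0.0633, without mouse 7, and 1.54, adjusted p = 0.0693, without mouse 8). ANIT mice 1 and 3 had 24.0 and 42.8 CPM while mice 2 and 4 had 7.62 and 6.35 CPM, within the control range. The ANIT change of 1.82 ± 0.42 was lost without mouse 3 (1.14, adjusted p = 0.0878). APAP (3.90 to 11.5 CPM, median 8.30), MDA (4.40 to 21.6 CPM, median 8.29) and TAA (5.07, 6.81, 6.27, 10.2 and 7.00 CPM) were not called, with changes of 0.345 to 0.815 over both sets of controls. When the fit also held a term for mouse numbers above 4 against 1 to 4, the MDA change was called (1.03, adjusted p = 0.0209, against all vehicles). With only mice 1 to 4 and their gavage vehicles, Trib3 was called in APAP (1.66, adjusted p = 0.0311) and in MDA (1.32, adjusted p = 0.0421). In GAL the 3.58, 5.52, 4.46 and 4.07 CPM lay below both intraperitoneal vehicles (-0.99 ± 0.24, adjusted p = 0.0270) and inside the range of the gavage vehicles (-0.41 against all, adjusted p = 0.414). The call against the intraperitoneal vehicles was lost without GAL mouse 7 or 8 or either vehicle, and with library totals (-0.23).

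Asns, Psat1 and Phgdh act in amino acid synthesis. Asns, which makes asparagine from aspartate and glutamine, had 1.24 to 9.26 CPM in gavage vehicles (median 4.89), 3.16 and 5.77 CPM in the intraperitoneal ones, and 4.41 and 2.68 CPM in the intravenous ones. CCl4 mice had 16.5 to 31.8 CPM (median 23.0), ANIT mice 17.7, 12.9, 39.8 and 12.4 CPM, and TAA mice 14.9, 15.2, 12.3, 10.6 and 15.3 CPM. All mice of those groups exceeded all vehicles, with log2 fold changes of 2.39 ± 0.22 (adjusted p = 6.52e-10), 2.21 ± 0.30 (1.25e-05) and 1.66 ± 0.25 (5.57e-06). APAP (5.80 to 24.6 CPM, median 9.71, log2 fold change 1.46 ± 0.29), MDA (4.50 to 16.0 CPM, median 12.3, 1.37 ± 0.24) and ConA (5.45 to 16.3 CPM, median 10.1, 1.30 ± 0.24) overlapped the vehicles and were called. The ConA call against its 2 route vehicles (1.6 ± 0.45) was lost without vehicle mouse 8 (1.26, adjusted p = 0.147). GAL mice had 3.28, 5.63, 4.44 and 3.80 CPM, and the change was -0.09 (95% CI -0.72 to 0.55). With library totals that GAL change was 0.72 (adjusted p = 0.0467), in a fit where that scaling moved the median over all genes by 0.83.

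Psat1 and Phgdh catalyse steps of serine synthesis from a glycolytic intermediate, a route that resting adult liver uses little. Psat1 was at 0.410 to 1.6 CPM in gavage vehicles (median 0.999), 0.434 and 0.972 CPM in the intraperitoneal ones, and 1.02 and 0.677 CPM in the intravenous ones. It rose after each compound: CCl4 mice had 24.6 to 36.8 CPM (median 31.7), APAP mice 7.89 to 19.5 CPM (median 11.6) and TAA mice 8.63, 17.6, 10.9, 9.57 and 11.4 CPM. The log2 fold changes were 5.10 ± 0.19 (adjusted p = 3.10e-17), 3.80 ± 0.22 (6.15e-11) and 3.72 ± 0.22 (3.30e-12). ANIT mice had 6.83, 1.81, 19.2 and 2.58 CPM (3.07 ± 0.36), MDA mice 1.66 to 10.8 CPM (median 4.97, 2.69 ± 0.25) and GAL mice 1.66, 4.20, 3.57 and 2.36 CPM (1.67 ± 0.28). Every mouse of these 6 groups lay above all 17 vehicles, and only ConA, at 1.58 to 7.19 CPM (median 3.01, 2.17 ± 0.25), touched their range. Without mouse 3 the ANIT change was 2.03. With only 2 controls, the GAL call against the route vehicle (2.14 ± 0.56, adjusted p = 0.0331) was lost without GAL mouse 4, 7 or 8 or either vehicle (1.68 to 2.66, adjusted p = 0.0635 to 0.165), and the ConA call (2.23 ± 0.61) without either vehicle (2.58, adjusted p = 0.0651, and 1.94, adjusted p = 0.122).

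Phgdh, the first enzyme of that route, was scarcely detected in vehicles, at 0 to 0.960 CPM by gavage (median 0.222), 0.281 and 0.707 CPM intraperitoneally, and 0.530 and 0.050 CPM intravenously. CCl4 mice held 15.3 to 29.3 CPM (median 17.3, log2 fold change 5.92 ± 0.35, adjusted p = 2.74e-13), and ConA mice 1.36 to 5.23 CPM (median 2.26, 3.40 ± 0.42). Both groups were wholly above the vehicles. Against the route vehicles the ConA change was 3.46 ± 0.89, 5.55 without vehicle mouse 7 and 2.62 without vehicle mouse 8, where the call was lost (adjusted p = 0.0721). APAP mice had 0.420 to 4.96 CPM (median 0.974, 2.42 ± 0.53), TAA mice 2.61, 1.11, 0.770, 1.42 and 1.37 CPM (2.21 ± 0.49) and MDA mice 0.047 to 2.77 CPM (median 0.865, 1.81 ± 0.51), all called with overlap. The APAP change was 1.73 without mouse 1. ANIT mice had 0.871, 0.337, 2.00 and 0.083 CPM (1.35, adjusted p = 0.126) and GAL mice 1.56, 0.485, 0.563 and 0.477 CPM (1.23, adjusted p = 0.0823), neither called. Without ANIT mouse 3 the ANIT change was 0.44 (adjusted p = 0.752), and without GAL mouse 2 the GAL change was 0.69. The GAL change was called with library totals (2.09, adjusted p = 0.0028) and in limma (0.41, adjusted p = 0.0403).

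Chac1 degrades glutathione and is among the most inducible ATF4 and CHOP targets in cultured cells. In vehicles it ranged from 0.353 to 6.79 CPM by gavage (median 2.39), with 4.56 and 4.46 CPM intraperitoneally and 3.93 and 4.03 CPM intravenously. ANIT mice had 4.82, 35.4, 200.6 and 15.2 CPM, so 3 of the 4 were above all vehicles and mouse 3 was far above the rest. The ANIT log2 fold change was 4.25 ± 0.61 (adjusted p = 2.14e-05) and 2.47 without mouse 3, still called. CCl4 mice had 25.2 to 43.0 CPM (median 28.9), all above the vehicles (3.17 ± 0.39, adjusted p = 1.77e-07). APAP mice had 1.02 to 72.1 CPM (median 7.29), a call of 2.44 ± 0.61 that was lost without mouse 1 (1.07, adjusted p = 0.179) and in limma. Chac1 was not called higher in the remaining groups. TAA mice, with high Atf3 and Ppp1r15a, had 1.18, 2.16, 2.22, 2.67 and 2.73 CPM of Chac1 (-0.57, 95% CI -1.69 to 0.55), and ConA mice 2.08 to 6.05 CPM (median 4.33, 0.32, 95% CI -0.61 to 1.25). MDA mice had 1.98 to 16.4 CPM (median 5.09, 0.75, adjusted p = 0.233), called with that term in the fit (1.20, adjusted p = 0.0479), and 0.19 without mouse 7. GAL mice had 0.332, 0.702, 0.495 and 1.10 CPM, lower by -2.39 ± 0.71 on the log2 scale against all vehicles (adjusted p = 0.0073) and by -2.78 ± 0.48 against the route vehicle, where the call was lost without either vehicle (-2.70, adjusted p = 0.0599, and -2.86, adjusted p = 0.0551).

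Sesn2 encodes sestrin 2, a leucine sensor and brake on mTORC1 that is also a target of p53 and NRF2. Vehicles were tight, at 2.32 to 5.19 CPM by gavage (median 4.36), 5.16 and 3.98 CPM intraperitoneally, and 4.90 and 4.57 CPM intravenously. GAL gave the highest group mean: its mice had 15.6, 22.4, 23.4 and 26.5 CPM, a log2 fold change of 2.41 ± 0.17 (adjusted p = 1.52e-10). ConA mice had 10.9 to 15.6 CPM (median 12.6, 1.76 ± 0.14), TAA mice 7.37, 12.5, 9.53, 13.0 and 9.87 CPM (1.41 ± 0.17) and CCl4 mice 6.86 to 11.1 CPM (median 8.52, 1.09 ± 0.15). All mice of these 4 groups were above all vehicles. ANIT mice had 7.27, 7.56, 38.2 and 4.74 CPM (1.84 ± 0.31, and 0.69 without mouse 3), APAP mice 4.34 to 18.3 CPM (median 6.35, 0.98 ± 0.23, and 0.53 without mouse 1) and MDA mice 3.78 to 9.87 CPM (median 5.85, 0.65 ± 0.17), all called with overlap. The CCl4 call against the route vehicle (0.98 ± 0.24) was lost without vehicle mouse 8 (0.80, adjusted p = 0.122).

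Compounds were also compared with each other in 1 fit over the 10 groups, with p-values adjusted over all genes and 21 pairs. Because the masses given are not known, these pairs compare the treatments as they were given. Of the 210 member-by-pair comparisons 113 were called, where 28.9% of all gene-by-pair comparisons were. CCl4 had the highest mean for Ddit3, Trib3, Asns, Psat1 and Phgdh, ANIT for Chac1 and Atf5, ConA for Atf3, TAA for Ppp1r15a and GAL for Sesn2. The ANIT mean of Chac1 rests on mouse 3: the ANIT median of 25.3 CPM is below the CCl4 median of 28.9 CPM, and ANIT minus CCl4 was 1.04 (95% CI -0.41 to 2.50, adjusted p = 0.297). CCl4 exceeded the next compound in Ddit3 (TAA, adjusted p = 5.69e-05), Trib3 (ANIT, 0.0018), Psat1 (APAP, 0.0030) and Phgdh (ConA, 0.00032), but not in Asns (ANIT, 0.723). For Atf3 the order of means ConA, CCl4, TAA, APAP held no called step between neighbours, and the APAP place rests on mouse 1, since its median of 8.83 CPM is below those of GAL (21.3 CPM) and ANIT (11.4 CPM); CCl4 minus ConA was -0.87 (95% CI -2.36 to 0.62). For Ppp1r15a, TAA exceeded CCl4 by 0.99 ± 0.34 (adjusted p = 0.0230), whereas TAA minus ConA was 0.43 (95% CI -0.25 to 1.11) and CCl4 minus ConA was -0.56 (95% CI -1.19 to 0.07). In Chac1 the order differed: ANIT exceeded TAA by 4.86 ± 0.90 and CCl4 exceeded ConA by 2.98 ± 0.69 (adjusted p = 0.00073), while in Ppp1r15a ANIT minus TAA was -3.49 ± 0.45 (2.17e-08). For Sesn2 no neighbours in the order differed, though GAL exceeded CCl4 by 1.32 ± 0.32 (0.0013). For Atf5 the called steps were ANIT above MDA (0.0037) and ConA above GAL (0.00048).

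**Figure D3:**
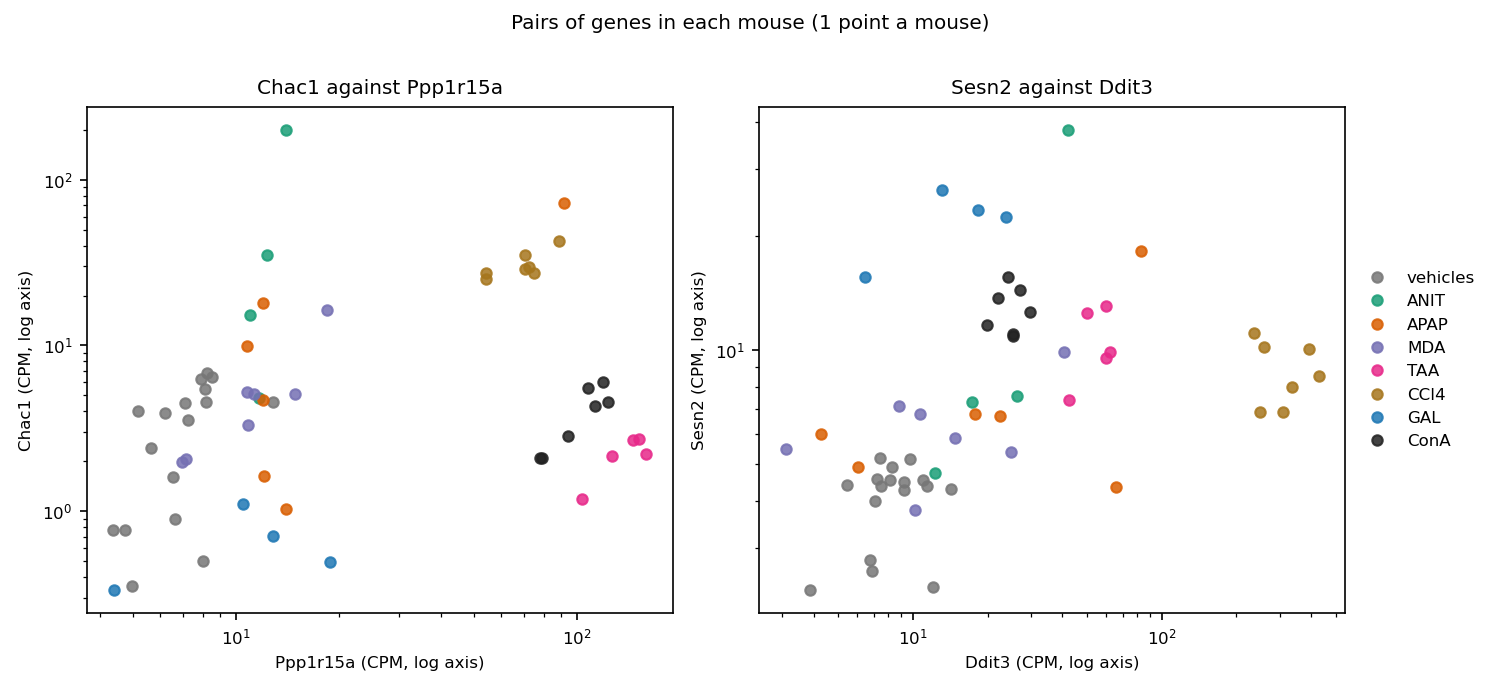
Each point is 1 mouse, coloured by group, with Chac1 against Ppp1r15a and Sesn2 against Ddit3 in CPM on logarithmic axes. TAA and ConA mice have high Ppp1r15a with Chac1 in the vehicle range, and GAL mice have high Sesn2 with Ddit3 of 6.44 to 23.8 CPM.

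The 10 genes did not vary as a single block across the 57 livers. On the log2(CPM + 1) scale Atf3 went closest with Ppp1r15a (Pearson r 0.930), Trib3 with Phgdh (0.883), Ddit3 with Phgdh (0.856) and Asns with Psat1 (0.836). The correlation with the mean of the 10 members, which includes the gene itself, was 0.915 for Ddit3, 0.538 for Sesn2 and 0.098 for Atf5. These are descriptions over samples that share treatment groups. Among 8026 other genes that averaged 5 CPM or more, those most like the members' mean were Ubb (0.926), Slc3a2 (0.891), Slc6a9 (0.883), Dusp4 (0.878), Srprb (0.874) and Vars (0.874). Ubb, a polyubiquitin gene, was at 2662 to 3213 CPM in CCl4 mice and 311.0 to 605.2 CPM in gavage vehicles.

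**Figure D4:**
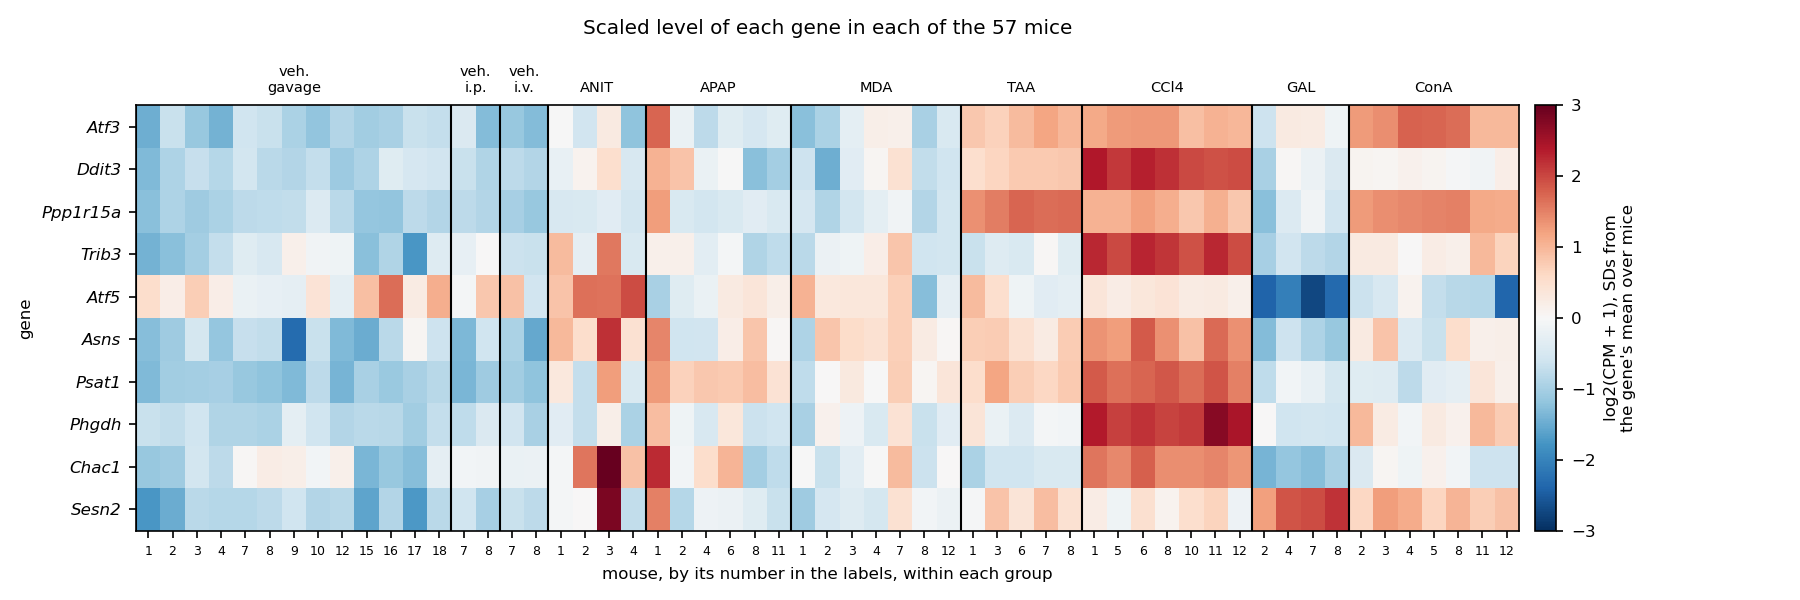
Heat map of the 10 members (rows) in 57 mice (columns, by group), each gene scaled to its own mean and SD on log2(CPM + 1). The CCl4 columns are high in most rows, and single columns stand out in ANIT (mouse 3) and APAP (mouse 1).

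Single mice carried much of the increase in 2 of the groups. ANIT mouse 3 was the highest of its 4 mice in 9 members and APAP mouse 1 the highest of its 6 in 9 members, MDA mouse 7 led in 7 members and GAL mouse 4 in 6. The APAP mouse 1 library also stood apart from the other APAP libraries, with a TMM factor of 0.721 against 1.11 to 1.25 and 16363 genes at a count of at least 1 against 17326 to 18211; the part of this in its member levels was not tested. In CCl4 the highest mouse changed from gene to gene over 4 mice. The highest CCl4 mouse exceeded the lowest by 1.15 to 2.12 times for each member, whereas in APAP the ratio was 129 for Atf3 and 70.5 for Chac1. Without ANIT mouse 3, Atf3 and Trib3 lost their calls, and without APAP mouse 1, Chac1 did; the remaining calls against all vehicles held when those mice were left out. The replicate numbers fall into a range of 1 to 4 and a range above 4 in the gavage experiments. All 4 ANIT mice are numbered 1 to 4, whereas 9 of the 13 gavage vehicles are above 4. In edgeR with only mice 1 to 4, the ANIT calls of Atf3 (2.97, adjusted p = 0.0902) and Sesn2 (2.02, adjusted p = 0.0703) were lost. The ANIT call of Atf5 was lost with the number range in the fit. Its change was 0.89 against the route vehicle (adjusted p = 0.0570) and 0.89 against all vehicles (adjusted p = 0.0607). In APAP against the gavage vehicles, the calls of Ddit3, Chac1, Sesn2 and Phgdh were lost with only mice above 4. Their changes there were 0.23, 0.86, 0.57 and 1.99, against 1.96, 2.56, 1.04 and 2.50 with all mice. The calls of Atf3, Sesn2, Asns, Ppp1r15a and Phgdh were lost with only mice 1 to 4. Those changes were not smaller, at 6.57, 1.54, 1.54, 2.78 and 2.79 against 4.94, 1.04, 1.41, 1.86 and 2.50 with all mice. Both fits had fewer samples. An interaction of compound with number range was called for none of 30 member tests in APAP, MDA and TAA, by edgeR with TMM or with library totals, where 0 genes (0.00%) in APAP, 0 (0.00%) in MDA and 16 (0.111%) in TAA were called overall. Of the 30, 5 had an unadjusted p under 0.05, all in APAP, where 10.2% of all genes did (5.67% in MDA and 10.6% in TAA). These were Atf3 (-5.20 ± 1.53 for numbers above 4 minus 1 to 4, p = 0.0032, adjusted p = 0.261), Chac1 (-3.51 ± 1.51, p = 0.0321), Ddit3 (-2.80 ± 0.71, p = 0.00094, adjusted p = 0.170), Ppp1r15a (-2.01 ± 0.72, p = 0.0123) and Trib3 (-1.66 ± 0.71, p = 0.0311).

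Vehicle groups did not differ detectably among themselves in these genes. Of the 10 members, 0 were called between intraperitoneal and gavage vehicles (background 0.0131%) and 0 between intravenous and gavage vehicles (0.0263%) in edgeR, DESeq2 or limma, and none had an unadjusted p under 0.05, where 3.75% and 3.82% of all genes did. With 2 mice in each injected group the intervals are wide: that of Atf3 in intravenous minus gavage vehicles was -3.08 to 0.43 on the log2 scale. Among the gavage vehicles, 0 of the 9 members tested were called between mice numbered above 4 and mice 1 to 4 (background 2.33%), by edgeR; Chac1 averaged 3.85 ± 2.67 CPM (SD, n = 9) and 1.42 ± 0.75 CPM (n = 4).

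Atf4 itself, upstream of the members, rose by less than most of them. Vehicles had 57.0 ± 13.0 CPM (SD, n = 17). It was higher in ConA (141.3 ± 20.3 CPM, n = 7, log2 fold change 1.41 ± 0.12), TAA (142.8 ± 25.8 CPM, n = 5, 1.37 ± 0.14), ANIT (124.7 ± 67.2 CPM, n = 4, 1.14 ± 0.21), CCl4 (113.5 ± 12.7 CPM, n = 7, 0.97 ± 0.12), APAP (103.6 ± 86.6 CPM, n = 6, 0.91 ± 0.25) and MDA (86.8 ± 18.3 CPM, n = 7, 0.62 ± 0.14). In GAL it was 57.3 ± 7.51 CPM (n = 4), a change of -0.02. The messages of Atf4 are regulated mainly in translation, which these data do not measure. A list of 9 genes held Atf4, genes of eIF2 and its kinases, Ppp1r15b, and the C/EBP factor genes Cebpb and Cebpg. Of these, 6 were higher and 1 lower in ConA, where Eif2ak2, the kinase that senses double-stranded RNA, rose by 2.23 ± 0.27. Against the 2 ConA route vehicles 3 were higher and 0 lower. Against all vehicles the counts higher and lower were 4 and 0 in ANIT, 3 and 2 in APAP, 2 and 0 in MDA, 4 and 2 in TAA, 3 and 2 in CCl4 and 2 and 2 in GAL. The largest called rise was that of Cebpb in APAP (1.02) and of Cebpg in CCl4 (1.17). Over all genes the shares higher and lower were 13.5% and 14.5% in ANIT, 18.1% and 15.3% in APAP, 17.2% and 17.1% in MDA, 25.2% and 24.5% in TAA, 26.2% and 27.2% in CCl4, 25.1% and 27.5% in GAL and 34.3% and 33.7% in ConA, and they are the background of each list that follows. In CCl4 and GAL the counts of these 9 genes were near it. With library totals they were 3 and 0, 2 and 0, 1 and 0, 3 and 1, 6 and 0, 7 and 0 and, in ConA, 4 and 3, where Eif2ak1 turned from higher to lower.

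Further ATF4 targets were called in every compound, mostly higher except in GAL. Of 15 tested, 8 were higher and 1 lower in ANIT, 7 and 2 in APAP, 11 and 1 in MDA, 10 and 2 in TAA, 9 and 3 in CCl4 and 11 and 3 in ConA, with medians of 0.55 to 1.68 on the log2 scale. In GAL 4 were higher and 7 lower (median 0.01), which became 7 and 1 (median 0.80) with library totals. Against the 2 GAL route vehicles 1 was higher and 3 were lower (median -0.52). Nupr1, a stress-induced chromatin protein, was at 409.3 ± 128 CPM in CCl4 against 1.84 ± 0.84 CPM in vehicles. Fgf21, a fasting and stress hormone of the liver, was at 106.2 ± 99.6 CPM in ANIT and 29.3 ± 28.6 CPM in MDA against 0.820 ± 0.827 CPM in vehicles. Cth, which makes cysteine, fell by 4.05 in GAL, by 2.13 in APAP, by 1.70 in ConA, by 1.48 in TAA and by 1.14 in CCl4 on the log2 scale, rose by 0.97 in MDA and was not called in ANIT (0.51).

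Amino acid transporters rose in 7 of 9 tested in CCl4 and TAA, in 8 of 8 in ConA and in 6 of 9 in GAL, and in 4, 4 and 3 of 8 in ANIT, APAP and MDA; 1 fell in each of ANIT, APAP, CCl4 and GAL. Slc7a11, the cystine importer, was at 22.5 ± 6.92 CPM in CCl4 and 0.014 ± 0.029 CPM in vehicles. Slc7a1, a cationic amino acid importer, rose by 4.83 ± 0.23 in ConA. Among the genes of serine, one-carbon and proline synthesis other than Psat1 and Phgdh, CCl4 raised 6 of 8 and lowered 2, and the mitochondrial folate enzyme Aldh1l2 was at 30.1 ± 6.85 CPM there against 0.054 ± 0.077 CPM in vehicles. In this list 4 were higher and 2 lower of 6 in TAA, 4 and 2 of 7 in APAP and 2 and 1 of 7 in ANIT. There were 2 and 2 of 6 in MDA, 2 and 2 of 7 in GAL and 2 and 1 of 6 in ConA. Those of GAL and ConA were near the shares over all genes. The cytosolic Shmt1 fell by 1.10 to 2.25 (log2) in each of the 7 compounds, while Mthfd1l rose by 4.13 ± 0.18 in ConA and by 3.88 ± 0.20 in TAA.

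Of 13 genes, 12 for aminoacyl-tRNA synthetases and Xpot for the receptor that exports tRNA from the nucleus, 11 were higher and 0 lower in CCl4 (median 1.06) and 8 and 0 in ANIT (median 0.58), where 26.2% and 13.5% of all genes were higher. There were 3 and 6 in ConA (median -0.12), 6 and 3 in GAL, 5 and 3 in TAA, 4 and 1 in MDA and 1 and 3 in APAP; those of TAA, ConA and MDA were near the shares over all genes, and differences between compounds in this list were not tested. With library totals the counts were 13 and 0 in CCl4, 3 and 0 in ANIT, 1 and 10 in ConA and 10 and 0 in GAL. Sars rose by 1.67 ± 0.09 in CCl4, and Wars, which interferon induces, rose by 2.10 ± 0.11 in ConA, while the tRNA exporter gene Xpot, 1 of the 6 lower there, fell by 1.30. Of 12 endoplasmic reticulum stress genes, 11 were higher in ANIT (median 1.31), 9 in APAP (0.99) and 9 in CCl4 (1.10, with 1 lower), and none was higher and 11 were lower in GAL (median -1.79, where 27.5% of all genes were lower). With library totals GAL had 1 higher and 9 lower. TAA had 2 higher and 4 lower, MDA 3 higher and ConA 5 higher and 2 lower, numbers near the shares over all genes. The ConA counts became 3 higher and 5 lower with library totals. Here too no difference between compounds was tested. Hspa5, the chaperone BiP, rose by 1.81 ± 0.16 in CCl4, Creld2 by 1.96 ± 0.39 in ANIT and Xbp1 by 2.26 ± 0.09 in ConA, and Herpud1 fell by 2.60 in GAL. Of 5 mitochondrial stress genes, 4 were higher in CCl4, led by the protease gene Lonp1 (1.17 ± 0.06), and 2 in ConA and 1 in ANIT. Those of ConA and ANIT were near the shares over all genes. None was higher in TAA, APAP, MDA or GAL, where 0, 2, 1 and 2 were lower, and Lonp1 in GAL turned from lower to higher with library totals. The counts higher and lower with library totals were 5 and 0 in CCl4, 0 and 3 in ConA, 0 and 1 in ANIT and 4 and 0 in GAL.

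**Figure D5:**
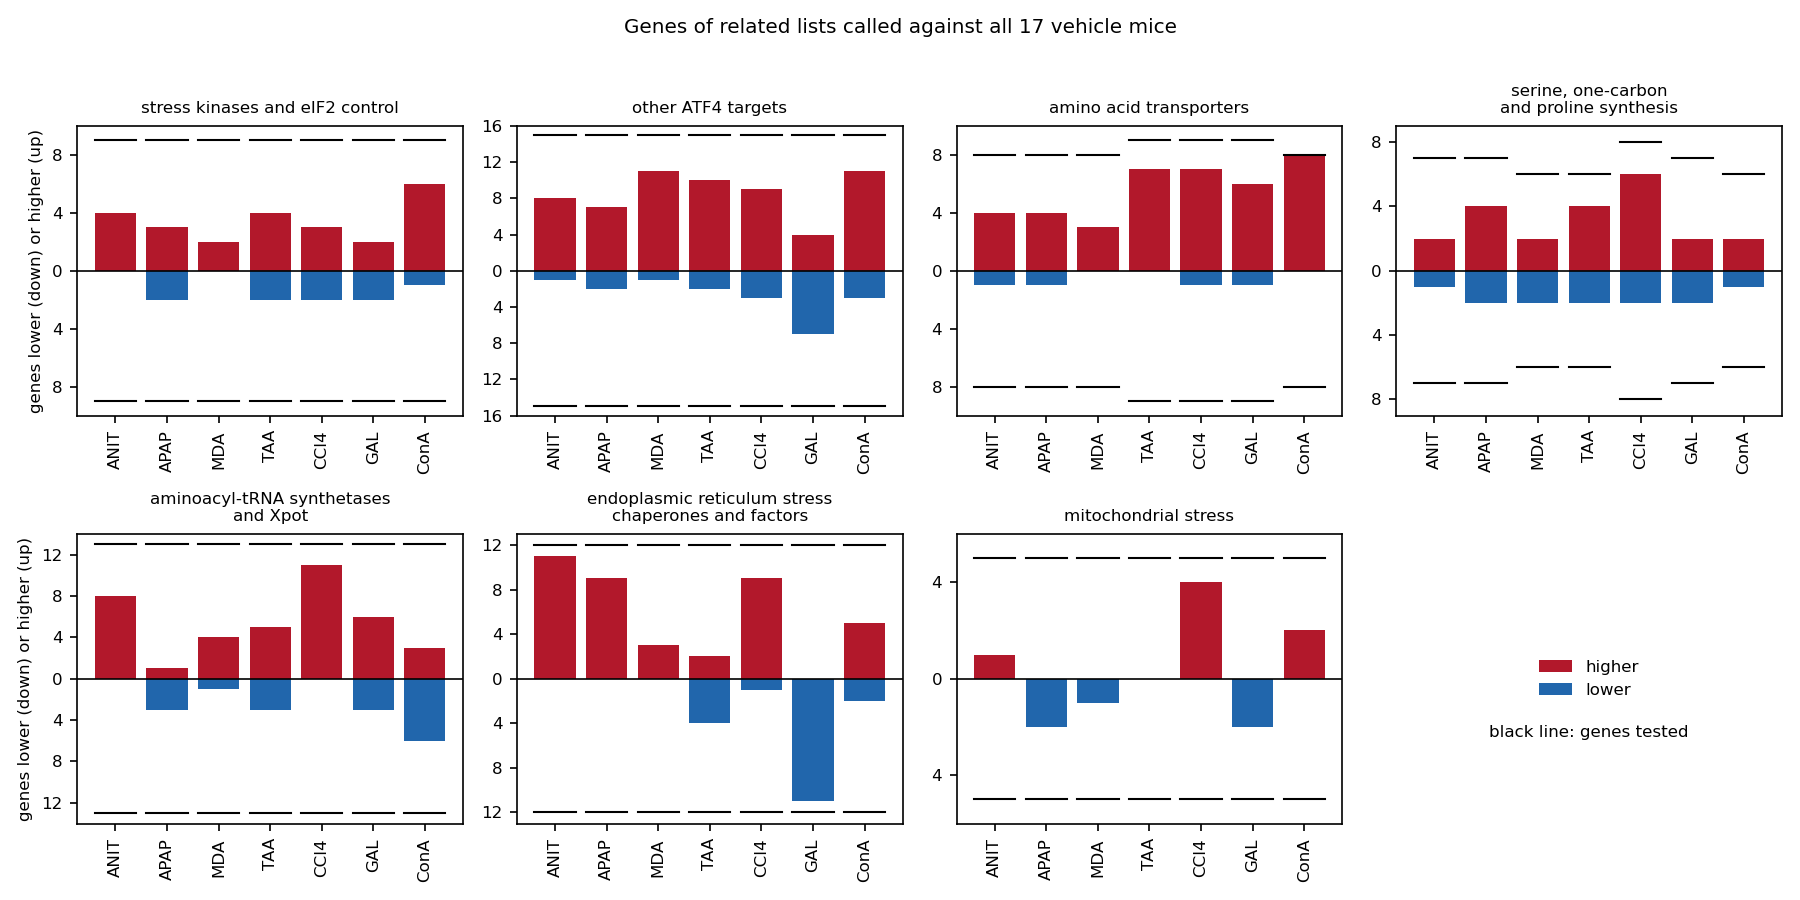
Bars give the number of genes called higher (upwards) and lower (downwards) against all 17 vehicles in each list of related genes and each compound, and the black line marks how many were tested. ANIT, APAP and CCl4 stand out upwards in the endoplasmic reticulum list, and GAL downwards.

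Markers of other liver cells moved in the same livers. Neutrophil markers summed to 2.11 to 62.2 CPM in vehicles (median 5.52), 159.1 to 825.5 CPM in TAA (6 of 6 tested genes higher), 126.5 to 286.9 CPM in ConA (3 of 4 higher, 1 lower) and 10.6 to 73.0 CPM in CCl4 (3 of 4 higher). They summed to 13.4 to 263.3 CPM in APAP (4 of 4 higher), 8.53 to 132.2 CPM in MDA (3 of 4), 14.7 to 47.5 CPM in ANIT (1 of 4) and 25.3 to 40.7 CPM in GAL (1 of 5). Those counts are against all vehicles. In the route comparisons 6 of 6 were higher in TAA, 4 of 5 in ConA, 2 of 5 in CCl4 and 3 of 4 in APAP. There 2 of 4 were higher in MDA, 1 of 4 in ANIT and 4 of 5 in GAL. The neutrophil-defining gene Ly6g was at 0 in all 17 vehicles and above 0 in all 5 TAA mice, 6 of 7 ConA mice, 3 of 7 CCl4 mice, 3 of 4 GAL mice, 2 of 6 APAP mice, 2 of 7 MDA mice and 0 of 4 ANIT mice. TAA and ConA are also the compounds with the highest Ppp1r15a, and the part of neutrophils in the member levels of any compound was not tested. Kupffer cell markers fell in ConA (6 of 6 lower, 24.2 to 52.1 CPM against 157.6 to 469.8 CPM in vehicles). In CCl4 and GAL 7 of 7 hepatocyte markers were lower, with medians of -1.51 and -1.35 on the log2 scale. With library totals 7 were lower in CCl4 and 4 in GAL, and the part of this change in the member values was not tested. Monocyte markers summed to 134.7 to 236.5 CPM in GAL against 27.7 to 108.7 CPM in vehicles (4 of 5 higher), and to 73.8 to 195.6 CPM in APAP (4 of 5) and 93.5 to 156.3 CPM in TAA (3 of 5). Sinusoidal endothelial markers summed to 64.6 to 87.5 CPM in CCl4, below the 99.0 to 169.3 CPM of all vehicles (5 of 6 lower), and 4 of 6 were lower in ConA. Scaled by library totals, 2 of 6 were lower in CCl4 and 4 of 6 in ConA. Stellate cell markers were lower in MDA (5 of 6) and ConA (4 of 6), although their sum in ConA, 132.2 to 303.5 CPM, was not below the vehicles' 63.1 to 215.6 CPM. Cholangiocyte markers were higher in ConA (4 of 5, 92.0 to 201.8 CPM against 22.8 to 105.6 CPM). The part of these cells in the member values was not tested.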

How the data were processed

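Messenger RNA was sequenced single-end from 57 livers, with a strand-marking kit, per the labels' protocols. The deposited table holds 1 estimated count per gene and liver; the submitters' processing notes name Salmon 1.6.0, R 4.1.3 and GRCm39 without their roles. Across 6013 genes with 1 transcript of at least 500 nt, longer transcripts had smaller lowest nonzero values (Spearman rho -0.779, a description across genes), so the values may be length-corrected, which no header states. Of the gene identifiers, 51482 matched a symbol and 2825 did not. Counts were rounded and tested with edgeR 4.0.16 (quasi-likelihood, TMM, filterByExpr, R 4.3.3) in 2-group fits, each compound against its route vehicle and against all 17 vehicles; adjusted p-values are Benjamini-Hochberg over all genes tested. All 10 members passed the filter on low counts in these comparisons. Compound pairs came from 1 fit over 10 groups. SEs follow from the F statistic. The fit was tested on simulated counts with known changes in a small set of genes, balanced up and down. That does not test the scaling where many genes change. Alternatives used library totals, DESeq2 1.42.0, limma 3.58.1 on log2(CPM + 1), other filters, a replicate block, the range of replicate numbers, each treated mouse left out (and each saline mouse in the route comparisons of CCl4, GAL and ConA) and, chosen after seeing the data, the 105-nt Ddit3 gene added. Replicates are separate mice. Group-centred levels of livers with equal replicate numbers correlated by over 0.1 in 3 of 4 TAA pairs and 1 of 4 APAP pairs with gavage vehicles. This held for 0 of 4 ANIT pairs and 0 of 7 MDA pairs. Among the route pairs of the injected compounds it held for 0 of 1 in CCl4, 0 of 2 in GAL and 1 of 1 in ConA. The main fits did not pair the mice. The members and the gene lists were chosen with earlier results of these data known. Genes named from the lists are those with the largest called change in each direction in a compound. Likeness was ranked by Pearson r over 57 samples. Total counts per library set the precision of levels near 0, such as those of Phgdh in vehicles.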

Additional observations from a re-analysis of the deposited data

Results flagged for a closer look

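In 6 of the 70 combinations of a member and a group of 4 to 10 mice, 1 mouse stood far from the others, with a gap to its nearest neighbour that took most of the group's range on the log2(CPM + 1) scale; chance gives about 1 in 20 such groups. Of these, 3 came from a single mouse: APAP mouse 1 had 449.9 CPM of Atf3 (next 12.2 CPM), 91.5 CPM of Ppp1r15a (next 14.0 CPM) and 18.3 CPM of Sesn2 (next 6.78 CPM). MDA mouse 7 had 16.4 CPM of Chac1 (next 5.26 CPM). GAL mouse 2 had 1.56 CPM of Phgdh (next 0.563 CPM). ConA mouse 12 was the lowest for Atf5, at 53.5 CPM (next 123.1 CPM). That library had a TMM factor of 1.01 against 0.477 to 0.737 in the other ConA libraries, 17432 genes at a count of at least 1 against 15362 to 16857, and 14.6% mitochondrial counts against 19.1% to 39.3%, and the part of this in its Atf5 level was not tested.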

How the results depend on the processing

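Of 2016 values recomputed under other settings, 1892 kept their direction and their side of the threshold, 109 lost a call, 14 gained one and 1 reversed: Asns in GAL against all vehicles, 0.72 (adjusted p = 0.0467) with library totals. Leaving out 1 treated mouse at a time, and 1 saline mouse in the route comparisons of CCl4, GAL and ConA, the members called against the route vehicle numbered 6 to 9 in ANIT, 7 to 8 in APAP, 5 to 7 in MDA, 7 to 7 in TAA, 8 to 9 in CCl4, 2 to 6 in GAL and 4 to 8 in ConA, and against all vehicles 7 to 9, 7 to 8, 6 to 7, 7 to 7, 9 to 9, 5 to 7 and 9 to 9. No label ties equal replicate numbers to a shared animal or day, and livers with equal numbers were alike in some pairs only. Under a replicate block the route counts were 4 in ANIT, 1 in APAP and 4 in MDA, and the APAP count against all vehicles was 2. The route changes that lost their call were 0.87 to 2.91 in ANIT, 1.13 to 2.76 in APAP and 0.84 to 2.00 in MDA. They were 0.86 to 2.99, 1.04 to 4.94 and 0.90 to 1.91 in the main fits. Atf3 in APAP fell from 4.94 to 2.76. The cause was not tested. Calls gained under the block by edgeR were Trib3 in TAA (0.79, adjusted p = 0.0446) and Atf3 in GAL (2.87, adjusted p = 0.0327), both against the route vehicle. Trib3 in MDA gained a call against all vehicles (0.93, adjusted p = 0.0350). The block could not be fitted for CCl4 or ConA against the route vehicle. With only mice numbered 1 to 4 the route counts were 4 in APAP and 3 in MDA, and with only those above 4 they were 4 in each, with fewer samples. A mean of at least 5 CPM left fewer members to test and gave 4 in MDA and 3 in GAL against the route vehicle, and 3 in MDA against all. In GAL against the route vehicle, 3 were called with no filter on low counts and 3 with the number range as a covariate, and in ConA 5 were called with library totals; the cause was not tested. Of the compound pairs 113 were called, 105 with library totals, 102 with the block, 115 by limma and 111 with each pair fitted alone, and 0 were called in opposite directions. No control mouse was left out of the gavage comparisons or of those with all vehicles. CCl4 had 9 calls under each setting against all vehicles. Each injected route has 2 controls, which limits the route comparisons of CCl4, GAL and ConA, and depth limits members near 0, such as Phgdh.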
